A study of Mus musculus with 6 samples.

Results

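The mitochondrial genome of the mouse carries 37 genes, and all of them were among the 55335 genes of the count table. They were taken as every row whose GENCODE M21 symbol starts with mt-, and they comprise 13 mRNA genes, 2 rRNA genes and 22 tRNA genes. After 1 h of LPS, the 10 mRNAs and 2 rRNAs that had enough reads to test were higher than with PBS when libraries were scaled by TMM. Of all 15687 genes tested, 32.9% were higher and 34.9% lower on that scaling, at an adjusted p under 0.05. Log2 fold changes of these 10 mRNAs and 2 rRNAs ran from 0.43 for mt-Co1 to 1.52 for mt-Atp6. The latter rested on few counts and passed the filter on low counts through its LPS libraries. The increase was unequal: mt-Rnr1, mt-Nd2, mt-Nd4, mt-Nd5 and mt-Cytb stood at 0.97 to 1.21, whereas mt-Co1, which supplied most mitochondrial mRNA counts, rose least. With library size alone those 5 genes stood at 0.57 to 0.81, and mt-Co1 (0.03), mt-Co2 (0.24) and mt-Nd6 (0.31) did not pass the test. By library size 15.0% of all genes were higher and 65.9% lower. Under TMM the nuclear genes that transcribe, process and translate mitochondrial RNA were mostly lower (72.5% to 76.5% of those tested in each list). Tfam fell by 1.02 on the log2 scale, while the pyrimidine nucleotide carrier gene Slc25a33 rose by 4.22.

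Mitochondrial DNA is a small circle that is read from both strands into long precursor RNAs. The tRNAs lie between the mRNAs and rRNAs, and cutting them out releases the mature transcripts, so that neighbouring genes begin life on one molecule but are degraded at their own rates. The mRNAs encode core subunits of complexes I, III and IV and of the ATP synthase, and every protein that copies, transcribes, processes or translates this genome is made from nuclear genes. Macrophages exposed to LPS, a component of the outer membrane of Gram-negative bacteria, are known for moving from respiration towards glycolysis over the following hours.

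The cells were bone marrow-derived macrophages of wild-type C57BL/6 mice, grown for 6 d with L929-conditioned medium, a source of the growth factor M-CSF. There were 3 libraries treated with PBS and 3 treated with LPS for 1 h. The labels number the replicates in each group, and each number, taken here as a pair, is shared by 1 PBS and 1 LPS library. The study used male mice of 7 to 10 weeks, and the LPS dose and the number of animals per library are not stated for these libraries. Total RNA was sequenced in paired-end reads after a kit that depletes ribosomal and globin RNA, and counted per gene.

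The libraries held between 37787611 and 41516330 counts. All 12 macrophage markers examined were detected. They summed to between 35050 and 36310 normalized CPM (counts relative to the scaled library total) with PBS and between 42050 and 42590 with LPS. With library size alone the order turned, with 40340 to 41670 against 36340 to 37140. Lyz2 supplied most of the sum, with means of 23260 normalized CPM with PBS and 24210 with LPS. Cd14 rose from a mean of 398 to 3621, while Fcgr1 fell from 396 to 284. Under TMM 9 of the 12 were called higher and 1 lower, beside 32.9% and 34.9% of all genes. Markers of other cells summed to far less: 31.4 to 34.2 with PBS and 34.9 to 36.2 with LPS for 10 neutrophil genes, of which Ly6g had at most 3 counts in any library, 5.22 to 6.63 and 13.6 to 13.8 for 7 dendritic cell genes, 1.03 to 1.41 and 1.41 to 1.85 for 8 lymphocyte genes, and 6.24 to 6.76 and 6.96 to 9.58 for 8 mast cell, erythroid and fibroblast genes, of which Hbb-bt had at most 3 counts. With library size alone the neutrophil sum was lower with LPS (36.2 to 39.2 against 30.4 to 31.5), the dendritic cell sum stayed higher (at most 7.63 with PBS and at least 11.8 with LPS), and the lymphocyte sum and the last sum overlapped. Their part in the results was not tested, and in such bulk RNA fewer cells of a type and less RNA per cell cannot be told apart. The study says in general that experiments were repeated independently, but the labels do not say whether these replicates were separate cultures or animals, so p-values may measure only the spread between these libraries. The scaling mattered: with library size alone the median of all tested genes shifted by -0.40 on the log2 scale relative to TMM, so calls that were lost or turned with it are given beside the results.

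Transcript levels spanned 4 orders of magnitude. In normalized CPM per kilobase with PBS, mt-Rnr2 stood at 2870 ± 325 (SD, n = 3) and mt-Co1 at 2485 ± 176, ahead of mt-Rnr1 at 177 ± 39.0 and mt-Nd1 at 155 ± 6.93, and neither pair differed beyond its spread. Then came mt-Cytb at 70.5 ± 5.64, mt-Nd5 at 24.3 ± 2.03, mt-Nd4 at 12.9 ± 1.67, mt-Nd2 at 9.81 ± 0.823 and mt-Nd6 at 6.61 ± 1.49. Apart from mt-Atp8 and mt-Nd4l, the lowest mRNAs were mt-Co3 at 4.62 ± 0.913, mt-Co2 at 3.29 ± 0.218, mt-Nd3 at 0.412 and mt-Atp6 at 0.230 ± 0.121. The PBS libraries of mt-Nd6 and mt-Co3 overlapped in level, as did those of mt-Nd3 and mt-Atp6, whereas the other neighbours in this order did not. Among transcripts that share no windows with others, mt-Nd1 and mt-Nd5, subunits of the same complex, differed widely in level. No read at all was counted for mt-Nd4l, which at 3 counts per library allows a level of up to 0.063 to 0.0919 normalized CPM; such limits cover counting error only.

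**Figure D1:**
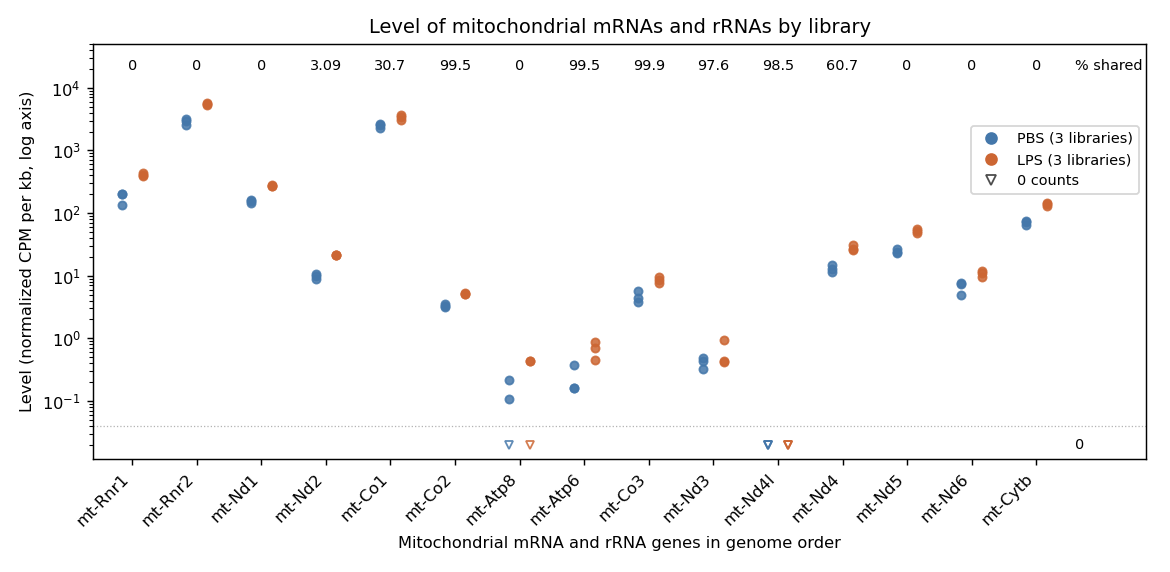
Level of each mitochondrial mRNA and rRNA gene in normalized CPM per kilobase (log axis) in genome order, 1 point per library, with the share of its read-length windows found in other annotated transcripts along the top. The genes with nearly all windows shared lie below 10 on this scale, and mt-Rnr2 and mt-Co1 lie far above all others in every library.

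The mRNAs with the lowest levels were largely those whose sequence recurs in nuclear DNA. Copies of mitochondrial DNA inserted in the nuclear genome are annotated as unprocessed pseudogenes, and a read that matches both places may be left out or placed in either, depending on counting settings that are not given in the sources used here. Of all windows as long as a read in each transcript, 99.9% of mt-Co3, 99.5% of mt-Co2, 99.5% of mt-Atp6, 98.5% of mt-Nd4l and 97.6% of mt-Nd3 were found letter for letter in another annotated transcript of GENCODE M21. For mt-Nd4 it was 60.7%, all within its first 876 of 1378 bases, for mt-Co1 30.7% and for mt-Nd2 3.09%. None were found in annotated transcripts for mt-Nd1, mt-Nd5, mt-Nd6, mt-Cytb, mt-Atp8 or either rRNA, and unannotated nuclear DNA was not compared. The partners of mt-Co2 through mt-Nd4 are the pseudogenes Gm28661, Gm10925, Gm28437, Gm28438, Gm10222 and Gm28439, which lie side by side on the minus strand of chromosome 1 (GRCm38) between positions 24611535 and 24616197 together with Gm29216, a copy of the end of mt-Co1. To show why reads from the pairs cannot be told apart, the first 60 bases of mt-Co2 (chrM:7013-7072, plus strand) and of Gm28661 (chr1:24615506-24615565, minus strand), and of mt-Co3 (chrM:8607-8666, plus strand) and Gm28437 (chr1:24613912-24613971, minus strand), are given from the GENCODE transcripts, 5′ to 3′, with no capitals because no base differs.
mt-Co2: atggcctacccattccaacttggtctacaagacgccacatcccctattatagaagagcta
Gm28661: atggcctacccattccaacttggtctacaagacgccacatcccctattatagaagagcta
mt-Co3: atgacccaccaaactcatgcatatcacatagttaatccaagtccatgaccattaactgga
Gm28437: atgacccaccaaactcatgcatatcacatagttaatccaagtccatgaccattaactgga
Over their whole aligned lengths these copies were 100% identical (681 bases for Gm28661 and 783 for Gm28437), and Gm28438 differed from mt-Nd3 by 1 base, T3C, counted from the first base of mt-Nd3. The levels of mt-Co2, mt-Atp6, mt-Co3, mt-Nd3, mt-Nd4l and mt-Nd4 are therefore uncertain. In smaller part this holds for mt-Co1 and mt-Nd2, and so for totals over the mRNAs. It may hold for mt-Atp8 too, which lies between mt-Co2 and mt-Atp6, because the unannotated DNA between their partners was not examined. The part of shared sequence in the low counts was not tested.

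**Figure D2:**
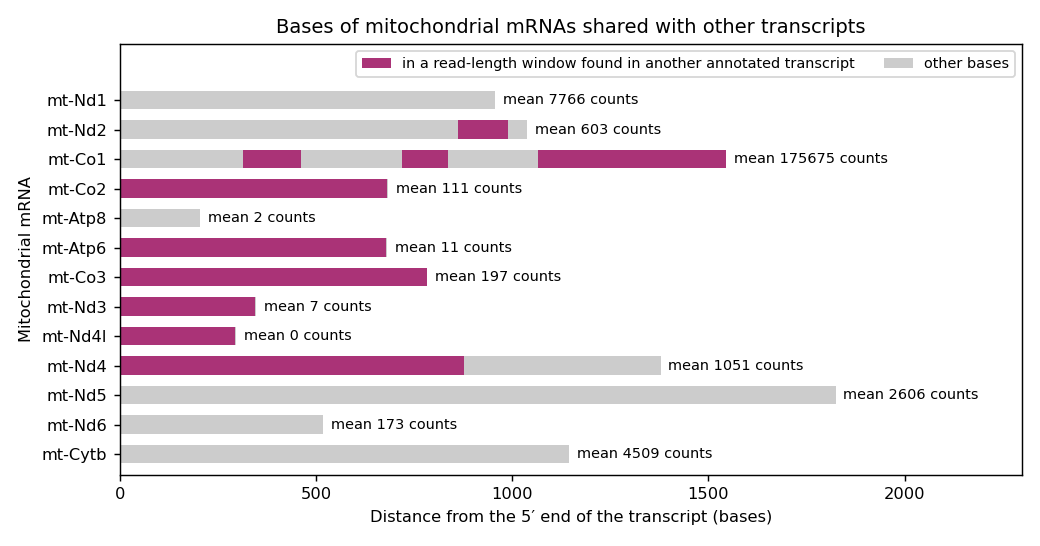
Bases of each mitochondrial mRNA, by distance from its 5′ end, that lie in a read-length window found exactly in another annotated transcript (purple), with its mean count over the 6 libraries. The shared run covers nearly all of mt-Co2, mt-Atp6, mt-Co3, mt-Nd3 and mt-Nd4l, the first 876 bases of mt-Nd4 and 479 bases at the end of mt-Co1.

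A second kind of sharing occurs within the mitochondrial genome, where 16 of the 37 genes overlap a neighbour. The reading frame of mt-Atp8 runs into that of mt-Atp6, and its last 58 bases (chrM:7912-7969, plus strand, GRCm38) are shown with the 43 bases that belong to both genes in capitals.
mt-Atp8 end: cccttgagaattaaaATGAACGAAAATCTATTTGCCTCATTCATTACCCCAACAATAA
The capitals open with the start codon of mt-Atp6 and close with the stop codon of mt-Atp8. Counts for mt-Atp8, a small ATP synthase subunit, were 0, 2 and 1 with PBS and 3, 0 and 3 with LPS, too few to test. mt-Nd4l and mt-Nd4 overlap by 7 bases in the same way.

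With the edgeR quasi-likelihood test and an adjusted p under 0.05, 14 of the 17 mitochondrial genes tested were higher with LPS and 0 were lower. Among all 15687 genes tested, 32.9% were higher and 34.9% lower. The median log2 fold change was 0.93 for the 10 mRNAs tested, beside -0.01 over all genes. With library size alone 9 of the 17 were higher and 1 lower (mt-Tt), against 15.0% and 65.9% of all genes, and the 5 that were no longer called higher were mt-Co1, mt-Co2, mt-Nd6, mt-Tw and mt-Tp. Under TMM 5 genes (mt-Rnr1, mt-Nd2, mt-Nd4, mt-Nd5 and mt-Atp6) also passed a log2 fold change of 1, as 10.5% of all genes did, and 8 genes did without PBS replicate 3. Of these, mt-Atp6 passed the filter on low counts through its LPS libraries. With at least 10 counts required in every library it was not tested, and 4 genes passed.

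Upper quartile scaling gave 13 higher and 0 lower, against 23.6% and 46.3% of all genes. Relative to the summed counts of the 13 mitochondrial mRNAs, 9 were higher and 1 lower, against 12.5% and 65.7% of all genes. Since mt-Co1 supplied 89.1% to 93.3% of that total, its own change on this scaling lay near 0 by construction. The other genes were in effect compared with mt-Co1. A log2 fold change of 1 was passed by mt-Rnr1 and mt-Atp6 with upper quartile scaling (9.35% of all genes), and by mt-Atp6 with library size alone (7.73%) and relative to the 13 mRNAs (7.38%). In normalized CPM the LPS libraries lay above all PBS libraries for 13 of the 17, including each of the 12 mRNAs and rRNAs, whereas 33.9% of all genes were separated in this direction. Those 12 were thereby also higher with LPS within each of the 3 pairs of same-numbered libraries.

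**Figure D3:**
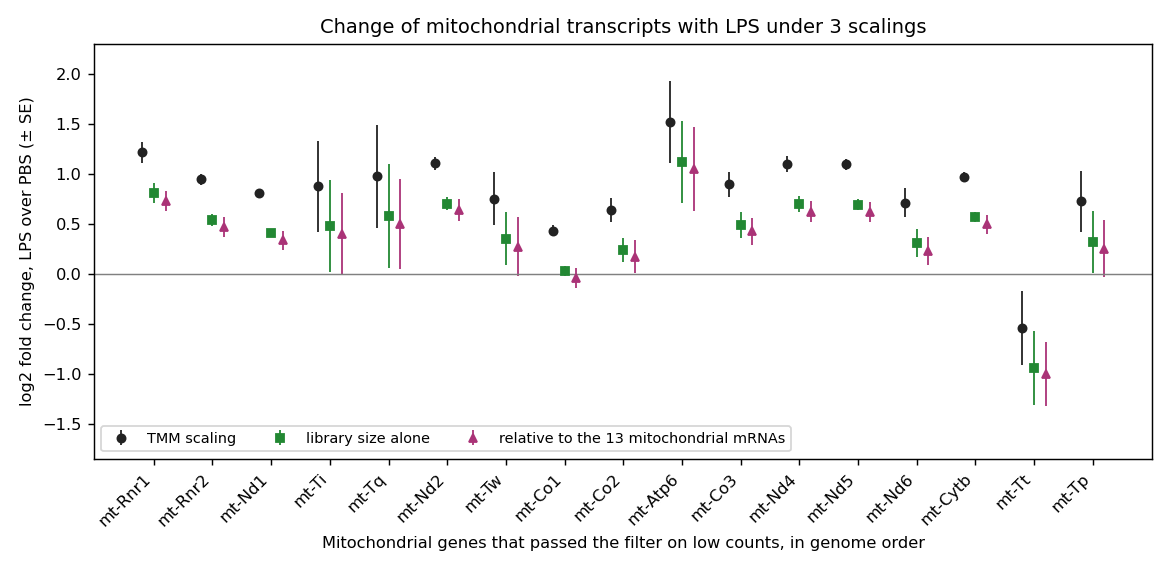
Log2 fold change (LPS over PBS) with its standard error for the 17 mitochondrial genes tested, under TMM scaling (circles), library size alone (squares) and relative to the summed counts of the 13 mitochondrial mRNAs (triangles). Every mRNA and rRNA lies above 0 under TMM, and mt-Tt lies below 0 under all 3. With library size alone mt-Co1 is near 0. Relative to the 13 mRNAs it is near 0 by construction, since it supplies most of their counts.

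Both rRNAs of the mitochondrial ribosome rose. The small subunit rRNA mt-Rnr1 (chrM:70-1024) had 126, 192 and 189 normalized CPM in PBS replicates 1 to 3 and 413, 374 and 389 in LPS replicates 1 to 3. PBS replicate 1 was the lowest, and the groups did not overlap. Its log2 fold change was 1.21 (SE 0.10, adjusted p = 6.24e-09), and 0.81 with library size alone. The large subunit rRNA mt-Rnr2 (chrM:1094-2675) had 3956, 4734 and 4929 normalized CPM with PBS and 9203, 8372 and 8646 with LPS, again without overlap. It rose by 0.95 on the log2 scale (SE 0.06, adjusted p = 8.04e-11), and by 0.54 with library size alone.

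The depletion step of the library kit acts on rRNA, so 13 other rRNA, globin and abundant non-coding RNA genes were examined. Of these 6 were tested and 6 were higher, beside 32.9% of all genes. Gm42418 and Gm26917, annotated over nuclear ribosomal RNA sequence, rose by 1.19 and 0.83, Gm23935 by 1.52, the small nuclear RNA gene Rn7sk by 0.55, and the near-identical copies Rn7s1 and Rn7s2 of the signal recognition particle RNA, between which reads may be split, by 1.14 and 1.37, which did not pass with library size alone (0.73 and 0.97). The LPS replicates of these copies varied widely, with 3756, 5410 and 710 normalized CPM for Rn7s1 and 673, 965 and 4466 for Rn7s2. Gm23935 had 36.4, 122.2 and 122.3 with PBS and 204, 316 and 287 with LPS. PBS replicate 1 was thus its lowest, as for Gm42418, Gm26917 and both mitochondrial rRNAs, but not for Rn7s1 or Rn7s2. The sum over the list ran from 24550 to 25380 normalized CPM with PBS and from 38070 to 45970 with LPS (28170 to 29210 and 33170 to 39730 with library size alone), and AY036118, Rpph1, Rmrp, Hba-a2, Hbb-bs and Hbb-bt had at most 3 counts in any library. The part of depletion in the rRNA result was not tested.

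The subunits of complex I, which takes electrons from NADH, were higher with LPS in each of the 5 cases tested. For mt-Nd1 (chrM:2751-3707), which shares no windows, normalized CPM were 141, 149 and 154 with PBS and 255, 256 and 268 with LPS. The replicates were tight, and mt-Nd1 rose by 0.81 (SE 0.04, adjusted p = 1.29e-12). mt-Nd2 (chrM:3914-4951) went from 10.3, 9.27 and 11.0 to 21.9, 21.9 and 22.1, a log2 fold change of 1.11 (SE 0.07, adjusted p = 5.96e-11). mt-Nd4, whose first part is shared, went from 15.6, 17.8 and 20.1 to 36.6, 35.7 and 42.2, a change of 1.10 (SE 0.08, adjusted p = 6.61e-10). For these 3 genes no LPS library came near the PBS range.

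mt-Nd5 and mt-Nd6 face each other on opposite strands and overlap by 14 bases. mt-Nd5, the longest mRNA, had 41.3, 43.1 and 48.4 normalized CPM with PBS and 94.6, 88.4 and 100.5 with LPS, and its log2 fold change was 1.09 (SE 0.05, adjusted p = 4.15e-12). mt-Nd6 is the mitochondrial mRNA made from the light strand, and had 2.54, 3.96 and 3.79 with PBS and 6.19, 4.90 and 5.73 with LPS. It rose by 0.71 (SE 0.14, adjusted p = 0.000251), with its lowest value in PBS replicate 1, but by 0.31 with library size alone (adjusted p = 0.0591). Per 1000 mt-Nd5 counts there were 61.5, 91.9 and 78.3 mt-Nd6 counts with PBS and 65.5, 55.4 and 57.0 with LPS, which overlapped (exact two-sided permutation test, p = 0.2; the smallest possible with 3 against 3 is 0.1). Whether counting used the strand is not given in the sources used here, so reads from heavy-strand precursors over mt-Nd6 cannot be told apart from its own. mt-Nd3, with 8, 5 and 7 counts in the PBS libraries and 11, 5 and 5 in the LPS libraries, was too low to test.

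mt-Cytb (chrM:14145-15288), the one mitochondrial subunit of complex III, shares no windows and had 73.3, 85.5 and 83.1 normalized CPM with PBS and 149, 159 and 167 with LPS. The groups lay well apart. Its log2 fold change was 0.97 (SE 0.05, adjusted p = 7.97e-12), and 0.57 with library size alone.

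All 3 mitochondrial subunits of cytochrome c oxidase, complex IV, were higher under TMM, and mt-Co3 alone passed with library size alone. mt-Co1 (chrM:5328-6872), the catalytic subunit, had 4081, 3545 and 3893 normalized CPM with PBS and 5217, 4720 and 5590 with LPS. Its log2 fold change was 0.43 (SE 0.05, adjusted p = 1.11e-06), the lowest of the mRNAs tested. In raw counts the groups overlapped, with 194436, 160249 and 179705 against 175190, 154127 and 190341. mt-Co2 had 2.41, 2.12 and 2.21 normalized CPM with PBS and 3.42, 3.64 and 3.46 with LPS, a change of 0.64 (SE 0.12, adjusted p = 0.000133), but 0.24 with library size alone (adjusted p = 0.0763). mt-Co3 had 4.41, 3.01 and 3.44 with PBS and 6.76, 5.94 and 7.52 with LPS, a change of 0.89 (SE 0.13, adjusted p = 7.47e-06). mt-Atp6 of the ATP synthase rested on 12, 5 and 5 counts with PBS and 20, 10 and 16 with LPS. It passed the filter on low counts through its LPS libraries, at 0.519, 0.265 and 0.410 CPM of the unscaled library total, beside 0.289, 0.128 and 0.125 with PBS. Its log2 fold change of 1.52 (SE 0.41, adjusted p = 0.00341) was the largest and the least precise of the mRNAs.

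The nuclear partners were counted as genes of their own. Gm28661 had 49, 44 and 45 counts with PBS and 50, 57 and 60 with LPS, and its log2 fold change was 0.74 (SE 0.17, adjusted p = 0.000987), beside 0.64 for mt-Co2. Gm28437, the partner of mt-Co3, had 176, 129 and 156 counts with PBS and 178, 144 and 149 with LPS, a change of 0.50 (adjusted p = 0.00142). Gm29216 rose by 0.58 (adjusted p = 0.000349), while Gm10925, Gm28438 and Gm13340, a copy of mt-Co1 on chromosome 2, had log2 fold changes of 0.36, 0.33 and -0.08 that did not pass the test. With library size alone, none of Gm28661, Gm28437 and Gm29216 passed, and Gm13340 was lower (-0.49, adjusted p = 0.00876). Gm28439, identical to the first part of mt-Nd4, had at most 3 counts in any library, as did Gm10222, the partner of mt-Nd4l.

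Of the 22 tRNA genes, 59 to 75 bases long and so shorter than a read, 17 were too low to test, with 0 to 12 counts per library and 5 of them at 0 throughout. Mature tRNAs are poorly captured by such libraries, and reads of tRNAs and of their precursors cannot be told apart here. mt-Tw, the tryptophan tRNA, had 19, 27 and 22 counts with PBS and 28, 21 and 34 with LPS, and rose by 0.75 (SE 0.26, adjusted p = 0.0183). mt-Tp, the proline tRNA, had 14, 26 and 37 counts against 24, 37 and 31, and rose by 0.72 (SE 0.31, adjusted p = 0.0459). Their raw counts overlapped between groups, and neither passed in DESeq2 (0.0593 and 0.0781) or with library size alone. In edgeR neither passed without PBS replicate 1 or without LPS replicate 3. mt-Tp was also lost without PBS replicate 2 (adjusted p = 0.0662), without LPS replicate 2 (0.1865) and with upper quartile scaling (0.1017). mt-Tw was also lost without LPS replicate 1 (adjusted p = 0.051). mt-Ti and mt-Tq, which overlap by 3 bases on opposite strands, had log2 fold changes of 0.87 (adjusted p = 0.0993) and 0.98 (adjusted p = 0.104), and mt-Ti passed without PBS replicate 3 and mt-Tq without LPS replicate 2.

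The threonine tRNA mt-Tt was the one tested gene with a negative change. It had 39, 23 and 23 counts with PBS and 24, 11 and 7 with LPS, a log2 fold change of -0.54 (SE 0.37, adjusted p = 0.205), which passed the test with library size alone (-0.94, adjusted p = 0.0263) and without LPS replicate 1 (-1.17, adjusted p = 0.0202). It lies between mt-Cytb and mt-Tp, directly after the former on the plus strand (chrM:15289-15355) and end to end with the latter on the minus strand (chrM:15356-15422). The pair is shown 5′ to 3′ with the anticodon in capitals, since these adjoining genes on opposite strands differed in sign.
mt-Tt: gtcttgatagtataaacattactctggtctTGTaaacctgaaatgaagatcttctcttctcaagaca
mt-Tp: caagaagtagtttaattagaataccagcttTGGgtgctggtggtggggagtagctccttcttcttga
Among the untested tRNAs mt-Tl1, the leucine tRNA directly after mt-Rnr2, stood out after its values were seen, with 1, 1 and 0 counts with PBS and 12, 3 and 6 with LPS. It passed the test when no filter on low counts was applied.

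Shares of the library total were compared next. All mitochondrial genes together took 0.970%, 1.01% and 1.08% of the counts in the PBS libraries and 1.34%, 1.21% and 1.33% in the LPS libraries. The LPS libraries were all higher by this measure, which depends on its total: the means differed by 0.276 percentage points, and by 0.528 when genes past both criteria were left out of the total. The rRNA share was higher in each LPS library, with 0.542% ± 0.0644 against 0.794% ± 0.0413 (SD, n = 3). The mRNA share of 0.477% ± 0.0292 with PBS and 0.501% ± 0.0419 with LPS overlapped. Ratios between mitochondrial genes do not depend on scaling between libraries. The ratio of mt-Rnr2 to mt-Co1 counts was 0.969, 1.33 and 1.27 with PBS and 1.76, 1.77 and 1.55 with LPS, higher in each LPS library (exact two-sided permutation test, p = 0.1, the smallest possible). The ratio of mt-Rnr2 to mt-Rnr1 was 31.4, 24.7 and 26.0 with PBS and 22.3, 22.4 and 22.2 with LPS, lower in each LPS library (exact permutation test, p = 0.1).

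Among mRNA counts, mt-Co1 took 93.3%, 91.9% and 92.3% with PBS and 90.1%, 89.1% and 90.1% with LPS, lower in each LPS library. The shares of mt-Nd1, mt-Nd2, mt-Nd4, mt-Nd5 and mt-Cytb were higher in each LPS library. mt-Nd5 went from 1.07% ± 0.109 to 1.64% ± 0.0256, mt-Cytb from 1.95% ± 0.270 to 2.75% ± 0.218, and mt-Nd1 from 3.58% ± 0.329 to 4.52% ± 0.278 (SD, n = 3). The share of mt-Nd6 overlapped between groups. When the total held the mRNAs without shared windows alone, mt-Nd1 was lower in each LPS library (53.6% ± 0.865 against 50.1% ± 0.501), mt-Nd5 was higher (16.0% ± 0.733 against 18.2% ± 0.736), and mt-Cytb overlapped. Relative to the 4 mRNAs with no shared windows and a mean of at least 50 counts (mt-Nd1, mt-Nd5, mt-Nd6 and mt-Cytb, a reference chosen after seeing the data), mt-Co1 fell by 0.48 on the log2 scale (adjusted p = 7.87e-08), mt-Rnr1 was higher by 0.32 (adjusted p = 8.1e-05), and mt-Rnr2, at 0.04, did not pass. On that reference 4 of the 17 were higher and 2 lower, against 8.71% and 82.7% of all genes, and 0 of them passed a log2 fold change of 1, as 5.60% of all genes did.

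**Figure D4:**
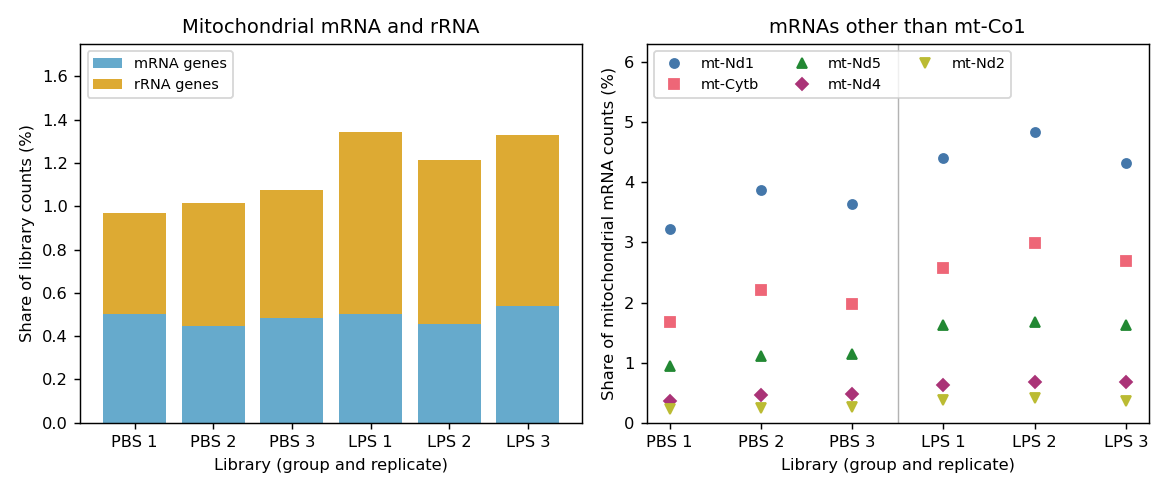
Left, share of library counts (%) in mitochondrial mRNA and rRNA genes in each library, stacked. Right, share of mitochondrial mRNA counts (%) of 5 mRNAs other than mt-Co1 in each library; each of the 5 is higher in every LPS library than in every PBS library, while the left panel shows the mRNA total overlapping between groups.

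The nuclear genes of mitochondrial gene expression were mostly lower with LPS. Of 117 listed, 112 were tested, 14 were higher and 73 lower, with a median log2 fold change of -0.36. With library size alone 7 were higher and 103 lower (6.25% and 92%), beside 15.0% and 65.9% of all genes. With upper quartile scaling 23.6% of all genes were higher and 46.3% lower. The counts in the lists below stand beside these shares. Past a log2 change of 1 there were 4 higher and 15 lower, beside 10.5% and 10.4% of all genes, and 40 lower with library size alone, as 18.9% of all genes were. The genes called higher and lower under TMM made up 12.5% and 65.2% of the genes tested from these lists, beside 32.9% and 34.9% of all genes.

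Among 17 genes of transcription and the nucleoid, the protein-DNA body that holds the genome, 1 was higher (2 with the replicate number as a block) and 13 lower (16 with library size alone). Tfam, which packages mitochondrial DNA and starts its transcription, had 19.2, 20.8 and 20.8 normalized CPM with PBS and 9.59, 9.46 and 10.9 with LPS. The groups lay far apart, and Tfam fell by 1.02 (SE 0.07, adjusted p = 3.21e-10). Mterf4 and Mterf1b, of the transcription termination factor family, fell by 1.08 and 1.69, but Mterf1b stood at 0.778 ± 0.163 normalized CPM with PBS and has a near-identical copy, Mterf1a, between which reads may be split. The gene that rose was Slc25a33, whose product carries pyrimidine nucleotides into mitochondria, from 2.67, 2.63 and 2.10 normalized CPM to 45.4, 49.8 and 42.7, a log2 fold change of 4.22 (SE 0.08, adjusted p = 4.23e-18).

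In the list for DNA replication and nucleotide supply, 3 of 22 were higher and 12 lower. By library size it was 1 higher and 21 lower, by upper quartiles 1 and 18, and 1 higher without PBS replicate 2. Twnk, the helicase of the replication fork, fell by 1.82 from 8.84 ± 0.636 to 2.50 ± 0.501 normalized CPM (SD, n = 3). The nuclease genes Exog and Mgme1 fell by 2.20 and 1.28, and Polg2, the accessory subunit of the polymerase, by 1.39.

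Of 40 tested genes that process, modify or degrade mitochondrial RNA, 3 were higher and 29 lower (0 and 38 with library size alone). Ptcd1, a pentatricopeptide protein that binds leucine tRNAs, fell by 1.54 (SE 0.08, adjusted p = 3.11e-12) and the pseudouridine synthase genes Rpusd4 and Rpusd3 by 1.50 and 1.20. Mrm2, a methyltransferase of the large rRNA, fell by 1.23 and the tRNA isopentenyltransferase gene Trit1 by 1.08. Supv3l1, the helicase of the RNA degradosome, rose by 0.53 from 12.7 ± 0.155 to 18.3 ± 0.309 normalized CPM, but by 0.13 with library size alone (adjusted p = 0.0538).

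Of 19 tested translation factors, 1 was higher and 14 lower (1 and 18 with library size alone). Mtif3, an initiation factor, had 13.6, 12.1 and 13.2 normalized CPM with PBS and 2.71, 3.25 and 2.76 with LPS, and fell by 2.16 (SE 0.10, adjusted p = 7.45e-13). Taco1, which activates translation of mt-Co1, fell by 1.35, and Mtfmt, which formylates the initiator tRNA, by 1.17. Noa1, a GTPase of mitochondrial ribosome assembly, rose by 0.92.

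The regulators of mitochondrial biogenesis were mixed under TMM, with 6 of 14 tested higher and 5 lower (42.9% and 35.7%), near the 32.9% and 34.9% of all genes. With library size alone 4 were higher and 10 lower (28.6% and 71.4%), beside 15.0% and 65.9% of all genes. Myc rose by 3.58 from 4.60, 4.23 and 4.74 to 53.2, 56.2 and 53.3 normalized CPM, Ppard by 1.54 and Gabpb1, a subunit of nuclear respiratory factor 2, by 1.46. Tfeb, a master regulator of lysosome genes that also acts on mitochondria, fell by 0.85. Each of these 4 changes passed with library size alone too, and so did those of the other genes named from the nuclear lists apart from Supv3l1.

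**Figure D5:**
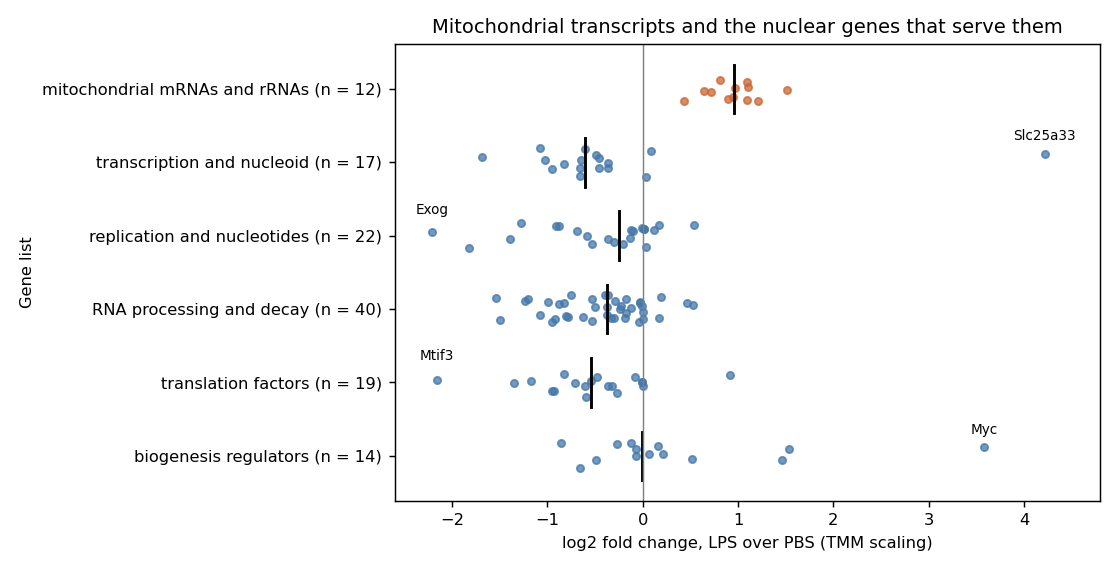
Log2 fold change (LPS over PBS, TMM scaling) of each tested gene of the nuclear lists and of the 12 mitochondrial mRNAs and rRNAs tested, with the list median as a black bar. The mitochondrial transcripts all lie above 0, the medians of the transcription, replication, processing and translation lists lie below 0, and Slc25a33 and Myc lie far to the right.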

How the data were processed

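RNA-seq of 6 libraries was analysed, 3 per group. The deposited values are raw counts per gene and library, which the authors made from reads aligned to GRCm38 with HISAT2 (2.1.0), converted with SAMtools (1.17) and counted with featureCounts (2.0.0). The annotation release, the strand setting and the handling of reads with several matches are not given in the sources used here. They bear on overlapping, antisense and duplicated genes.

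Of 55335 gene ids, 55154 matched GENCODE M21 without version. Counts were fitted in edgeR (4.0.16, R 4.3.3) after filterByExpr and TMM scaling, with no covariates. Its quasi-likelihood p-values were adjusted by Benjamini and Hochberg across the 15687 genes tested. CPM are normalized by TMM. Mean TMM factors were 1.15 (PBS) and 0.869 (LPS). On simulated counts for this comparison (15224 genes) edgeR recovered 194 of 200 genes changed by a log2 fold of 1.5. DESeq2 (1.42.0) and limma voom (3.58.1), other scalings and filters, and leaving out each library were alternatives. All windows of the read length, both strands, were compared with annotated transcripts only. No genome sequence was used here.

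All mitochondrial mRNAs and rRNAs were named, tRNAs that passed the filter, and, from each nuclear list, genes past both criteria (adjusted p under 0.05, absolute log2 fold change above 1) and the largest called change each way among those averaging 50 counts or more. A gene named by this rule is not reported here. The members and the gene lists were chosen with earlier results of these data known. Libraries were paired by their replicate number alone. Correlations of the deviations of same-numbered libraries were -0.0139, 0.0822 and 0.0387.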

Additional observations from a re-analysis of the deposited data

How the results depend on the processing

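Under the alternatives the summary results (counts, shares and ratios) stayed close to their value in 147 comparisons and not in 21. The values below include these, beside ranges over left-out libraries, other tests and single genes whose sign turned. The count of mitochondrial genes called higher (14) was 9 with library size alone, 9 relative to the 13 mitochondrial mRNAs, 4 relative to the 4 mRNAs without shared windows (chosen after seeing the data) and 12 to 15 when 1 library was left out. The count called lower (0) was 1, 1 and 2 under the same scalings and 0 to 1 when 1 library was left out, mt-Tt each time, joined by mt-Co1 under the last scaling. The count past both criteria (5) was 1, 1 and 0, was 2 with upper quartile scaling, and ran from 5 to 8 when 1 library was left out; downwards (0) it was 1 relative to the 13 and 1 relative to the 4 mRNAs, and 0 to 1. Nuclear genes called higher (14) were 7 by library size and 9 by upper quartiles, and those lower past both criteria (15) were 40 and 24. The mitochondrial share of counts differed by 0.276 percentage points, by 0.528 with genes past both criteria left out of the total and by 0.0238 without the rRNAs. Relative to the 13 mRNAs, most of whose counts are its own, mt-Co1 turned to -0.043, near 0 by construction. Relative to the 4 mRNAs, by construction of a reference that itself rose, signs turned for mt-Nd1 (-0.10), mt-Ti (-0.019), mt-Tw (-0.15), mt-Co1 (-0.48), mt-Co2 (-0.27), mt-Co3 (-0.021), mt-Nd6 (-0.19) and mt-Tp (-0.17), and the mt-Nd1 and mt-Nd6 shares fell by 3.43 and 0.150 percentage points without the sharing mRNAs in the total. With the replicate block 14 mitochondrial genes were higher, 0 lower and 5 past both criteria, and the pairing changed no call of a named gene. DESeq2 called 12 higher and voom 15. At 0 to 12 counts most tRNAs were beyond this depth.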
